A study of Homo sapiens with 3 samples.

Results

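The spliceosome core is described here through 39 human genes whose products build the machine that removes introns. They were chosen by name from its small nuclear ribonucleoproteins, its helicases and its PRPF19 complex. In a knockout screen of NUGC3 cells, an established gastric cancer line, 38 of the 39 genes were targeted under their listed symbols, among 20449 genes in all. These 38 genes had 112 guide RNAs of the 62916 in the library: 36 genes had 3 guides each, and SNRPC and AQR had 2 each. The remaining gene, LSM8, had no guide under that symbol and is taken up with the LSM proteins.

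The screen used the GeCKO library, a pool of lentiviral Cas9 guide constructs in which each cell carries a guide that disrupts a gene, so the reads of a guide in genomic DNA stand for the cells that carry it. Every library therefore came from NUGC3 cells carrying these guides. The RTX day 14 library was from cells grown for 14 days with 10 nM RTX, the DMSO day 14 library from cells grown with the solvent alone, and the day 0 library from the starting cells. The labels do not spell out RTX, although the series title concerns antifolate drugs. The title of the day 0 library names DMSO as well as day 0. A protocol note assigns the DMSO treatment of 14 days to the day 0 group, which the day in its title and its treatment label contradict. Each condition was a single library, so no difference below has a replicate check, and a guide's change between conditions cannot be separated from the difference between the cultures, PCRs or sequencing runs of those libraries.

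An intron is removed by particles made of a small nuclear RNA and its proteins. The U1 particle reads the start of the intron, and the U2 particle, through its SF3A and SF3B proteins, holds the branch point near its end. The U4, U5 and U6 particles then join as a tri-snRNP that carries the PRPF proteins, helicases and the PRPF19 complex remodel the assembly, and the catalytic centre forms. A ring of 7 Sm proteins encircles the U1, U2, U4 and U5 RNAs, and a related ring of LSM2 to LSM8 sits on the U6 RNA. Most of these genes are known as essential for dividing human cells, so a guide that disrupts them is commonly lost from a growing pool.

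The RTX library held 17344507 reads, the DMSO library 18805737 and the day 0 library 16547572, with medians of 232, 251 and 230 reads per guide. Changes are given as the log2 ratio of the authors' normalized reads after adding 5 to each value. Guides under 10 normalized day 0 reads were left out, and each gene is scored by its median guide. A score of -1 or 1 is a 2-fold difference. Reads are printed as counted, and "lower" or "higher" refers to the normalized ratio. Adding 5 makes the ratios of rarely read guides smaller than they are. The 991 non-targeting guides that passed the filter, which match no gene, had a median of 0.11 (SD 0.56) in RTX over day 0. The DMSO over day 0 ratios of these guides had a median of 0.19 (SD 0.53), and those of RTX over DMSO had -0.10 (SD 0.64), so the authors' scaling, under which the median gene lies near 0, places the non-targeting guides off 0. Intervals and floors given below cover counting error only, since reads after PCR are not independent molecules.

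The 112 spliceosome guides made up a smaller share of both day 14 libraries than of the day 0 library. They had 20848 reads in the RTX library, or 0.1202% of it (95% Wilson binomial interval 0.119 to 0.122%). They had 22465 reads in the DMSO library, or 0.119% (0.118 to 0.121%), and 26476 reads in the day 0 library, or 0.160% (0.158 to 0.162%). The median spliceosome guide had 147 reads in the RTX library, 146 in the DMSO library and 231.5 at day 0. The summed share thus differed little between the day 14 libraries, with overlapping intervals, although parts of it differed in opposite directions. Guides of the PRPF genes held 0.0152% of the RTX library and 0.0184% of the DMSO library. Those of SNRNP70, SNRPC, SNRPA1 and U2AF2 held 0.0192% of the RTX library and 0.0122% of the DMSO library. Under 20 reads were counted for 8 of the 112 guides in the RTX library, 8 in the DMSO library and 4 at day 0. Over all 62916 guides the numbers were 1415, 1552 and 796 in that order, a smaller share in each library. A guide of DHX8, the helicase that releases the finished mRNA, had 9 reads at day 0 and did not pass the filter, which left 111 guides and all 38 genes with 2 or 3 guides each.

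Growth without drug was compared first, as DMSO day 14 over day 0. The 38 genes had a median score of -0.63, against -0.00089 for the 20150 genes tested, and their scores ran from -2.02 for SNRPF to 0.51 for PRPF6. A score of -1 or lower was found for 13 of the 38 genes, or 34.2%, against 3.42% of all genes tested. Among single guides, 40 of 111 were at -1 or lower, or 36.0%, against 7.61% of all gene-targeting guides. Below the 5th percentile of the non-targeting guides, which was -0.67, lay 51 of the 111, or 45.9%, against 14.1% of all gene-targeting guides. Values were uneven within genes. Every guide was below 0 in 12 of the 38 genes, or 31.6%, against 14.6% of all genes, whereas 27 genes, or 71.1%, had at least 1 guide at -1 or lower, against 19% of all genes. The SD over the guides of a gene had a median of 0.757 in the spliceosome genes and 0.431 in all genes tested.

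**Figure D1:**
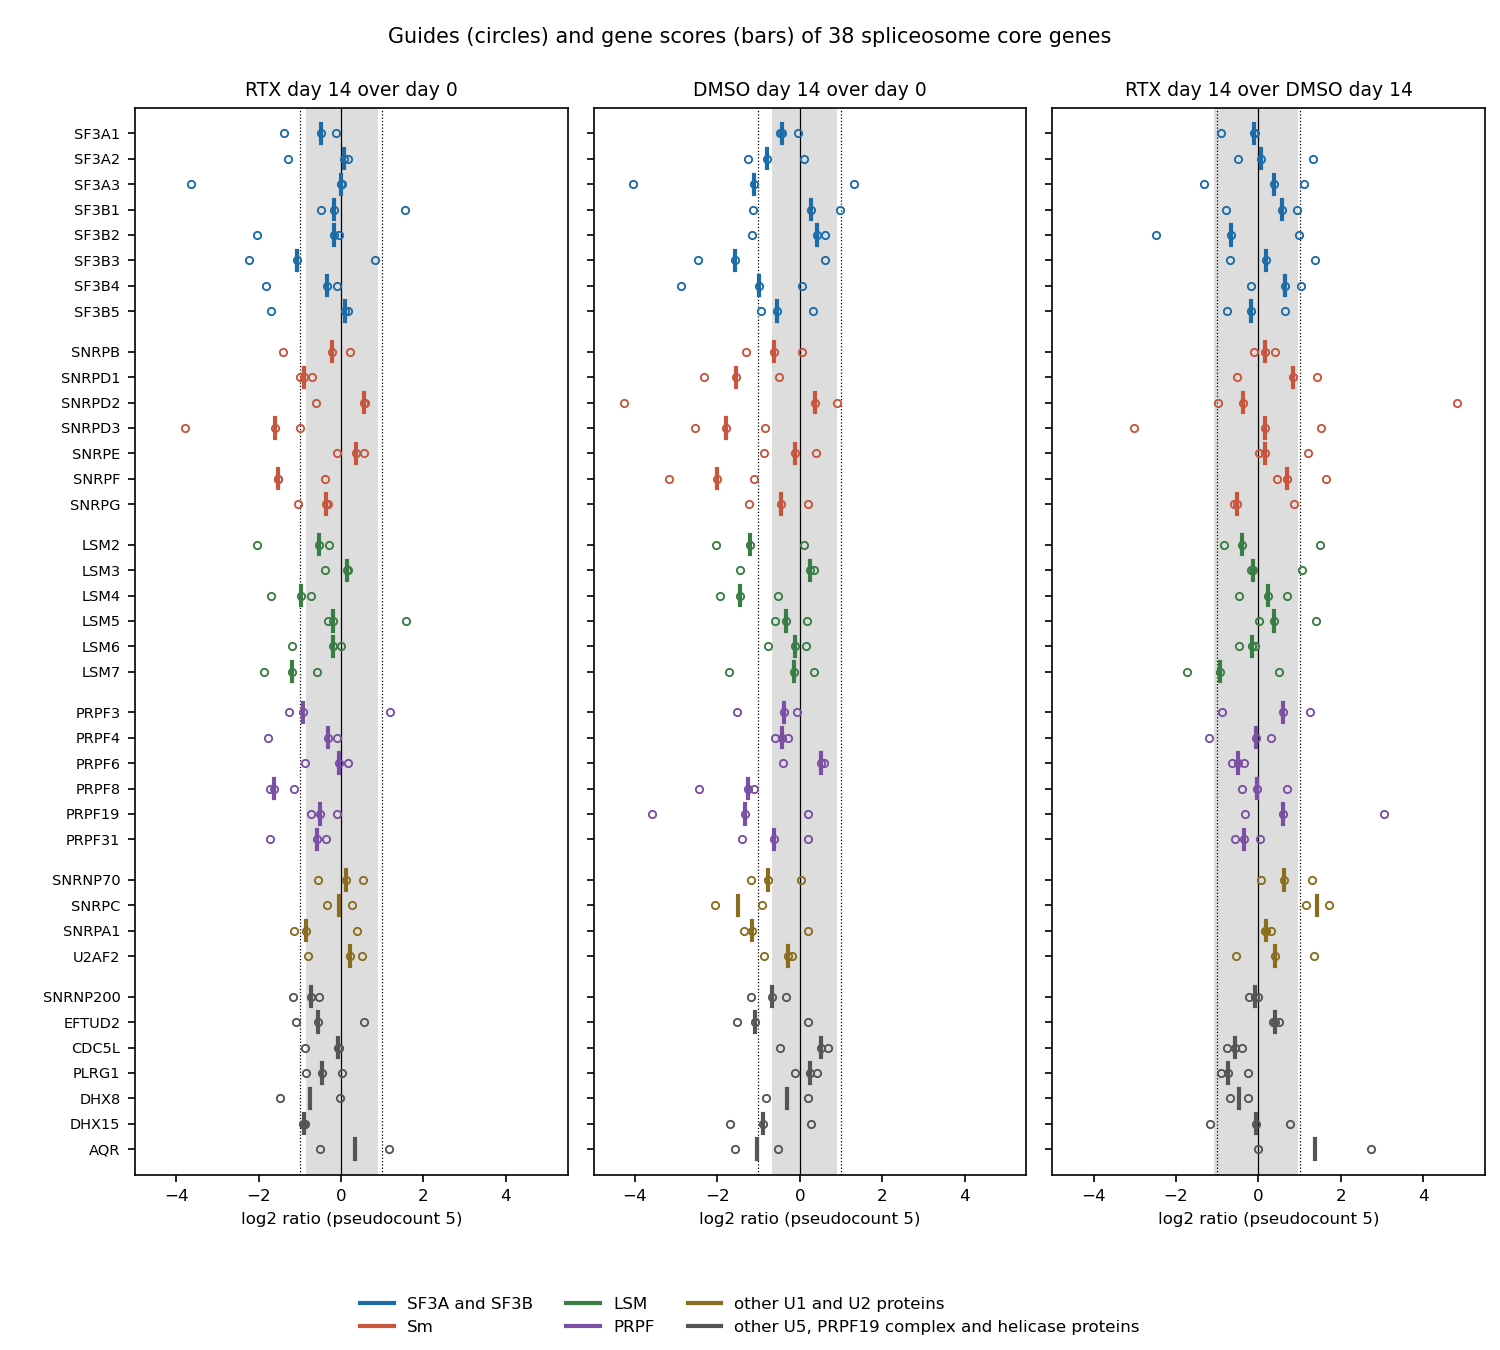
Log2 ratio of every guide (circles) and the gene score (bar, the median over guides) for the 38 spliceosome genes, coloured by subgroup, with RTX over day 0, DMSO over day 0 and RTX over DMSO in separate panels; the grey band marks the 5th to 95th percentile of the non-targeting guides and dotted lines a 2-fold difference. Scores for DMSO over day 0 run from -2.02 for SNRPF to 0.51 for PRPF6, and 51 of the 111 guides lie below the band in that panel, against 3 above it.

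Gene-level calls were made by exact robust rank aggregation, which asks whether the guides of a gene rank nearer to an end of all guides than evenly spread ranks would. It compares 2 libraries, not the conditions, and the guides of a gene share their target. For DMSO over day 0 it called 40 genes lower at an adjusted p under 0.05 after Benjamini-Hochberg adjustment over the 20150 genes, or 0.199%, and 0% higher. Of the 38 spliceosome genes, 0 were called. An unadjusted p under 0.05 in the lower direction was found for 14 of them, or 36.8%, against 6.73% of all genes. The lowest adjusted p by exact rank aggregation was 0.133 for both SNRPF and PRPF8. The same test ranked by an edgeR count test also called 0 of the 38.

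Among the Sm proteins, 3 of the 7 genes had a score of -1 or lower for DMSO over day 0, and the median over the 7 was -0.62. SNRPF, a ring subunit, had the lowest score of all 38 genes, -2.02. Its 3 guides had 10, 99 and 13 reads in the RTX library, 0, 65 and 9 in the DMSO library, and 38, 131 and 47 at day 0. All 3 were lower in both day 14 libraries than at day 0, and the first was at least 14.1-fold lower in the DMSO library, taking 3 reads per library as the floor. SNRPD3, which pairs with SNRPB in the ring, had a score of -1.78 for DMSO over day 0. Its guides had 1, 23 and 120 reads in the RTX library, 46, 22 and 43 in the DMSO library, and 77, 79 and 245 at day 0. The first guide was lowest in the RTX library and guide 3 was lowest in the DMSO library, so the guides of SNRPD3 did not keep the same order in the 2 day 14 libraries.

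SNRPD1, the ring partner of SNRPD2, had a score of -1.54 for DMSO over day 0. The guides of SNRPD1 had 25, 148 and 62 reads in the RTX library, 42, 58 and 36 in the DMSO library, and 55, 277 and 103 at day 0, lower at day 14 in every case. SNRPD2 itself stood at the other end, with a score of 0.37. Its guides had 168, 182 and 130 reads in the RTX library, 373, 261 and 0 in the DMSO library, and 258, 122 and 85 at day 0. Guide 3 was thus at least 31.6-fold lower in the DMSO library than at day 0 but higher in the RTX library, and the first 2 did not share its loss. SNRPE, another subunit, had a score of -0.12, with 343, 478 and 130 reads in the RTX library, 372, 474 and 59 in the DMSO library, and 363, 323 and 100 at day 0. The other Sm genes scored -0.62 (SNRPB) and -0.46 (SNRPG). Sm guides began with fewer reads than the rest, a median of 128 at day 0, so their ratios carry more counting error.

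The SF3A and SF3B proteins of the U2 particle had a median score of -0.68 over 8 genes for DMSO over day 0, and 2 of the 8 were at -1 or lower. SF3B3, a scaffold subunit of SF3B, had the lowest score, -1.57. Its guides had 530, 15 and 74 reads in the RTX library, 509, 30 and 28 in the DMSO library, and 296, 89 and 159 at day 0. Guides 2 and 3 of SF3B3 were lower in both day 14 libraries, while the first was higher in both. SF3A3, a subunit of the SF3A trimer, scored -1.11, and SF3B4, which contacts the RNA beside the branch point, fell just short of the threshold at -0.998. The SF3A3 guides lay far apart, at -4.05, 1.32 and -1.11, and the first had 3 reads in the DMSO library. SF3A2 scored -0.79, SF3B5 -0.56 and SF3A1 -0.42.

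SF3B1, the large SF3B subunit that clamps the branch point and is mutated in several blood cancers, had a score of 0.27 for DMSO over day 0. Its 3 guides spanned -1.13 to 0.98. SF3B2 had a score of 0.43, one of the 4 highest. The guides of SF3B2 had 257, 424 and 59 reads in the RTX library, 450, 234 and 390 in the DMSO library, and 263, 472 and 258 at day 0. Only the second was lower in the DMSO library than at day 0, and guide 3 was lowest in the RTX library. Scores of the listed SF3A and SF3B genes thus ran from -1.57 for SF3B3 to 0.43 for SF3B2. The list is not all of SF3B, since PHF5A at -1.68 and SF3B14 at 0.007 were counted with the other spliceosome genes.

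The LSM proteins had a median score of -0.23 for DMSO over day 0, the nearest to 0 of the 6 subgroups, with 2 of 6 genes at -1 or lower. The LSM median was -0.51 with at least 50 day 0 reads (Sm -0.54), -0.42 scaled to the non-targeting guides and -0.39 with the mean over guides. LSM4 scored -1.44 and LSM2 -1.22, against -0.33 for LSM5, -0.13 for LSM7, -0.12 for LSM6 and 0.26 for LSM3. Differences between the subgroups were not tested, since 4 to 8 genes in unreplicated libraries allow no test over samples. LSM2 to LSM7 also form, with LSM1 in place of LSM8, a cytoplasmic ring that acts in mRNA decay. LSM1 had a score of -0.33 for DMSO over day 0, and the 5 measured genes of that decay ring and its partners (LSM1, PATL1, DCP2, XRN1 and EDC4) had a median of -0.22 with none at -1 or lower.

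The library lists guides under NAA38, an older symbol of LSM8 in RefSeq. The present NAA38 was formerly LSMD1, which has guides of its own in the library. The guides listed as NAA38 had 204, 145 and 41 reads in the RTX library, 369, 257 and 61 in the DMSO library, and 411, 270 and 143 at day 0. All 3 were lowest in the RTX library, with gene scores of -1.001 for RTX over day 0, -0.67 for RTX over DMSO and -0.31 for DMSO over day 0. These guides are left out of every count given for the 38 genes.

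The PRPF proteins had a median score of -0.53 over 6 genes for DMSO over day 0, and 2 were at -1 or lower. PRPF8, the large protein that cradles the catalytic centre, scored -1.26. Its guides had 36, 223 and 93 reads in the RTX library, 54, 253 and 61 in the DMSO library, and 122, 492 and 318 at day 0. Every PRPF8 guide was at -1 or lower for RTX over day 0 and for DMSO over day 0. Those comparisons share the day 0 library, so a high count there lowers both ratios and they are not independent. PRPF19, the ubiquitin ligase that gives the PRPF19 complex its name, scored -1.33. The proteins of the U4 and U6 particle scored -0.63 (PRPF31), -0.44 (PRPF4) and -0.39 (PRPF3). PRPF6, which bridges the U5 particle to the U4 and U6 particles, had the highest score of the 38 genes, 0.51. The PRPF6 guides had 132, 285 and 385 reads in the RTX library, 207, 401 and 667 in the DMSO library, and 245, 251 and 397 at day 0, and guides 2 and 3 were highest in the DMSO library.

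The other U1 and U2 proteins had a median of -0.96 over 4 genes, the lowest of the 6 subgroups. With the mean over guides in place of the median it was -0.70, against -0.99 for the Sm proteins. SNRPC, which helps the U1 particle hold the start of the intron, scored -1.49 from 2 guides. These had 789 and 185 reads in the RTX library, 385 and 59 in the DMSO library, and 656 and 235 at day 0, so both were lowest in the DMSO library. SNRPA1, a U2 protein, scored -1.16 and SNRNP70, a U1 protein, -0.77. U2AF2, which reads the pyrimidine-rich tract before the end of the intron, scored -0.27. Its guides had 134, 294 and 212 reads in the RTX library, 55, 245 and 344 in the DMSO library, and 93, 251 and 373 at day 0, so its guides did not order the libraries alike.

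The other U5, PRPF19 complex and helicase proteins had a median of -0.66 over 7 genes, with 2 at -1 or lower. EFTUD2, the GTPase of the U5 particle, scored -1.08, and AQR, an intron-binding helicase, scored -1.04 from 2 guides. The AQR guides had 153 and 331 reads in the RTX library, 21 and 364 in the DMSO library, and 65 and 468 at day 0. DHX15, the helicase that takes the spent spliceosome apart, scored -0.89, SNRNP200, the helicase that unwinds the U4 and U6 RNAs, -0.66, and DHX8 -0.31. CDC5L and PLRG1, both of the PRPF19 complex, were above 0, at 0.51 and 0.26. CDC5L guides had 322, 212 and 168 reads in the RTX library, 527, 309 and 316 in the DMSO library, and 331, 388 and 175 at day 0. PLRG1 guides had 534, 126 and 136 reads in the RTX library, 704, 266 and 255 in the DMSO library, and 526, 176 and 246 at day 0. By normalized value, the second CDC5L guide and guide 3 of PLRG1 were highest at day 0 and the other 4 in the DMSO library.

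**Figure D2:**
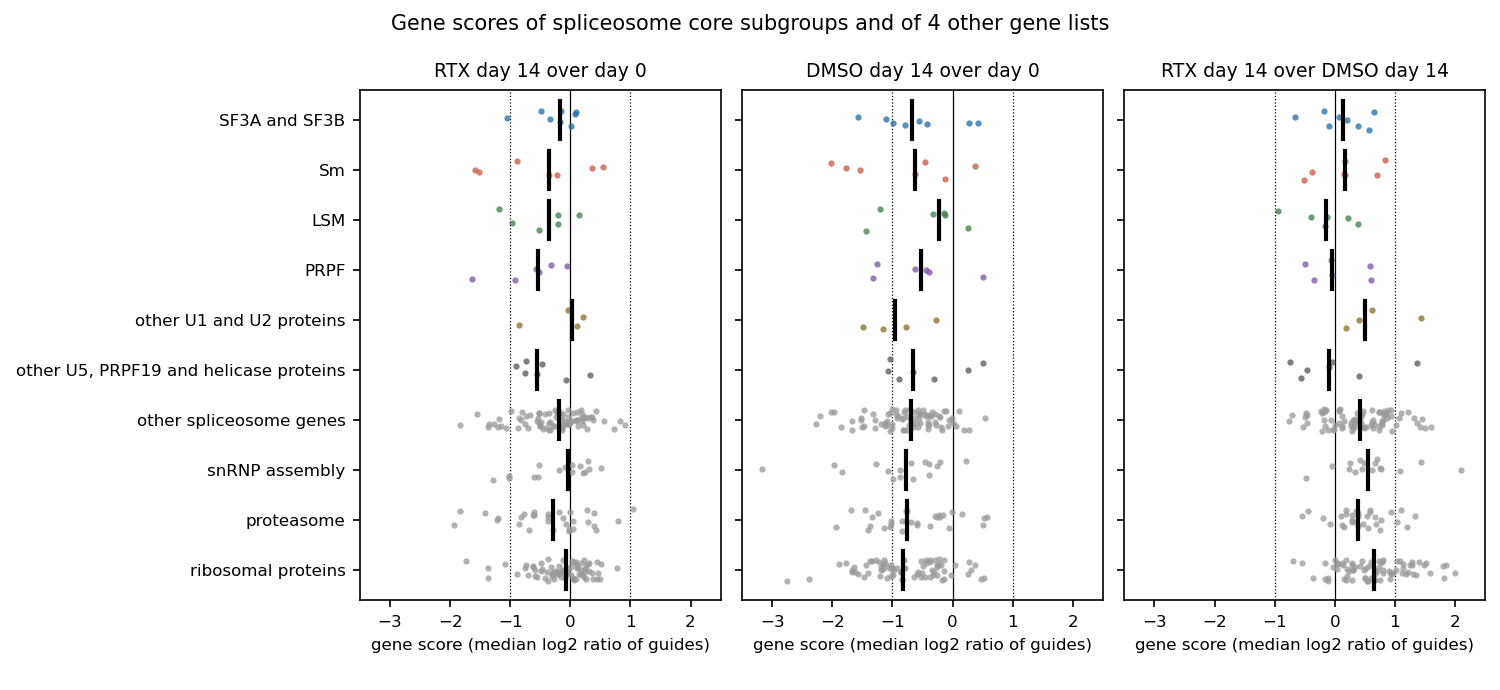
Gene scores (log2, points) with their median (bar) for the 6 subgroups and, in grey, 4 other gene lists, in panels for RTX over day 0, DMSO over day 0 and RTX over DMSO. In the DMSO over day 0 panel the subgroup medians run from -0.96 for the other U1 and U2 proteins to -0.23 for the LSM proteins.

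Under drug, RTX day 14 was set against the same day 0 library that the DMSO library was compared with. The 38 genes had a median score of -0.35, against -0.0049 for all genes tested, and ran from -1.64 for PRPF8 to 0.55 for SNRPD2. A score of -1 or lower was found for 5 of the 38, or 13.2%, against 1.39% of all genes. These were PRPF8 at -1.64, SNRPD3 at -1.59, SNRPF at -1.53, LSM7 at -1.19 and SF3B3 at -1.06. The count was 8 when scaled to the non-targeting guides and 3 with a pseudocount of 20. The share of all genes was not counted under those settings, so 1.39% does not apply to them. Among guides, 31 of 111 were at -1 or lower, or 27.9%, against 5.36% of all gene-targeting guides. Below the 5th percentile of the non-targeting guides, -0.85 here, lay 40 of the 111, or 36.0%, against 7.62%. Every guide was below 0 in 18 genes, or 47.4%, against 14% of all genes.

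Exact rank aggregation for RTX over day 0 called 0 of the 38 genes at an adjusted p under 0.05, and over all genes it called 0% lower and 0.0794% higher. An unadjusted p under 0.05 in the lower direction was found for 15 of the 38, or 39.5%, against 5.68% of all genes. The lowest adjusted p by exact rank aggregation was 0.187, for PRPF8. Ranked instead by the authors' guide p-values, PRPF8 came to an adjusted p of 0.0537, the lowest under any setting. That ranking called 14 genes lower over all genes in place of 0. Under the other alternatives the adjusted p of PRPF8 by exact rank aggregation ran from 0.092 (pseudocount of 20) to 0.217 (pseudocount of 1).

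By subgroup, the median scores for RTX over day 0 were -0.55 for the PRPF proteins, -0.56 for the other U5, PRPF19 complex and helicase proteins, -0.36 for both the Sm and the LSM proteins and -0.17 for the SF3A and SF3B proteins. The other U1 and U2 proteins had a median of 0.03, which turned to -0.07 when the libraries were scaled to the non-targeting guides and to -0.02 when scaled to equal totals. With the mean over guides, the medians came to -0.71 for both the SF3A and SF3B and the LSM proteins, to -0.57 for the Sm proteins and to -0.04 for the other U1 and U2 proteins. LSM7, a ring subunit on the U6 RNA, scored -1.19 here and -0.13 without drug. Its guides had 212, 36 and 149 reads in the RTX library, 163, 145 and 319 in the DMSO library, and 488, 143 and 223 at day 0. The first LSM7 guide was below day 0 in both day 14 libraries, whereas the other 2 were lowest in the RTX library. The highest scores for RTX over day 0 were those of SNRPD2 at 0.55, SNRPE at 0.36, AQR at 0.33 and U2AF2 at 0.22.

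The drug comparison proper set RTX day 14 against DMSO day 14. It shares the DMSO library with the comparison of DMSO over day 0, so a guide with few DMSO reads is low there and high here from the same count, and the 2 comparisons are not independent. The 38 genes had a median score of 0.11, against -0.0025 for all genes tested and a median of -0.10 for the non-targeting guides. A score of 1 or higher was found for 2 of the 38, or 5.26%, against 2.75% of all genes, and for -1 or lower it was 0 of 38, against 0.844%. The 2 were SNRPC at 1.43 and AQR at 1.37, the only genes of the 38 that the library targets with 2 guides. Among the 35 genes with 3 guides after the filter, the highest was SNRPD1 at 0.84, so 0 genes reached 1. With the mean over guides, 4 of the 38 did, and the share of all genes was not counted under that setting.

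Single guides spread more widely than gene scores by construction, since each score is the median of its guides. Of the 111 guides, 19 were at 1 or higher, or 17.1%, against 7.95% of all gene-targeting guides, and 6 were at -1 or lower, or 5.41%, against 5.42%. Every guide was above 0 in 8 genes, or 21.1%, against 13.9% of all genes. Exact rank aggregation called 0 of the 38 genes in either direction, and over all genes it called 0% lower and 0.0794% higher. An unadjusted p under 0.05 was found for 5 of the 38 in the higher direction, or 13.2%, against 5.88%, and for 4 in the lower direction, or 10.5%, against 5.19%. The lowest adjusted p by exact rank aggregation was 0.286 for SNRPD2 in the higher direction and 0.883 for SNRPD3 in the lower.

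Each of those genes had a guide with next to no reads in a day 14 library. Guide 3 of SNRPD2 had 130 reads in the RTX library and 0 in the DMSO library (at least 47.7-fold higher), while the gene score, set by the other guides, was -0.37. The first SNRPD3 guide had 1 read in the RTX library and 46 in the DMSO library, 41.7-fold lower with a 95% counting interval of 7.13 to 1684, while guide 3 of SNRPD3 was higher in the RTX library, 120 reads against 43. PRPF19, singled out after its values were seen, had a guide of the same kind, with 42 reads in the RTX library, 1 in the DMSO library and 62 at day 0.

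SNRPC and AQR differed in how their 2 guides behaved for RTX over DMSO. Both SNRPC guides were higher in the RTX library, at 1.16 and 1.70. Of the AQR guides, the first was at 2.73 and the second at 0.00, so the score of 1.37 rests on the first guide, which had 21 reads in the DMSO library. SNRPD1 at 0.84 and SNRPF at 0.70 made up the 4 highest. The lowest were LSM7 at -0.94, PLRG1 at -0.75, SF3B2 at -0.66 and CDC5L at -0.56. All 3 PLRG1 guides and all 3 CDC5L guides were lower in the RTX library than in the DMSO library.

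**Figure D3:**
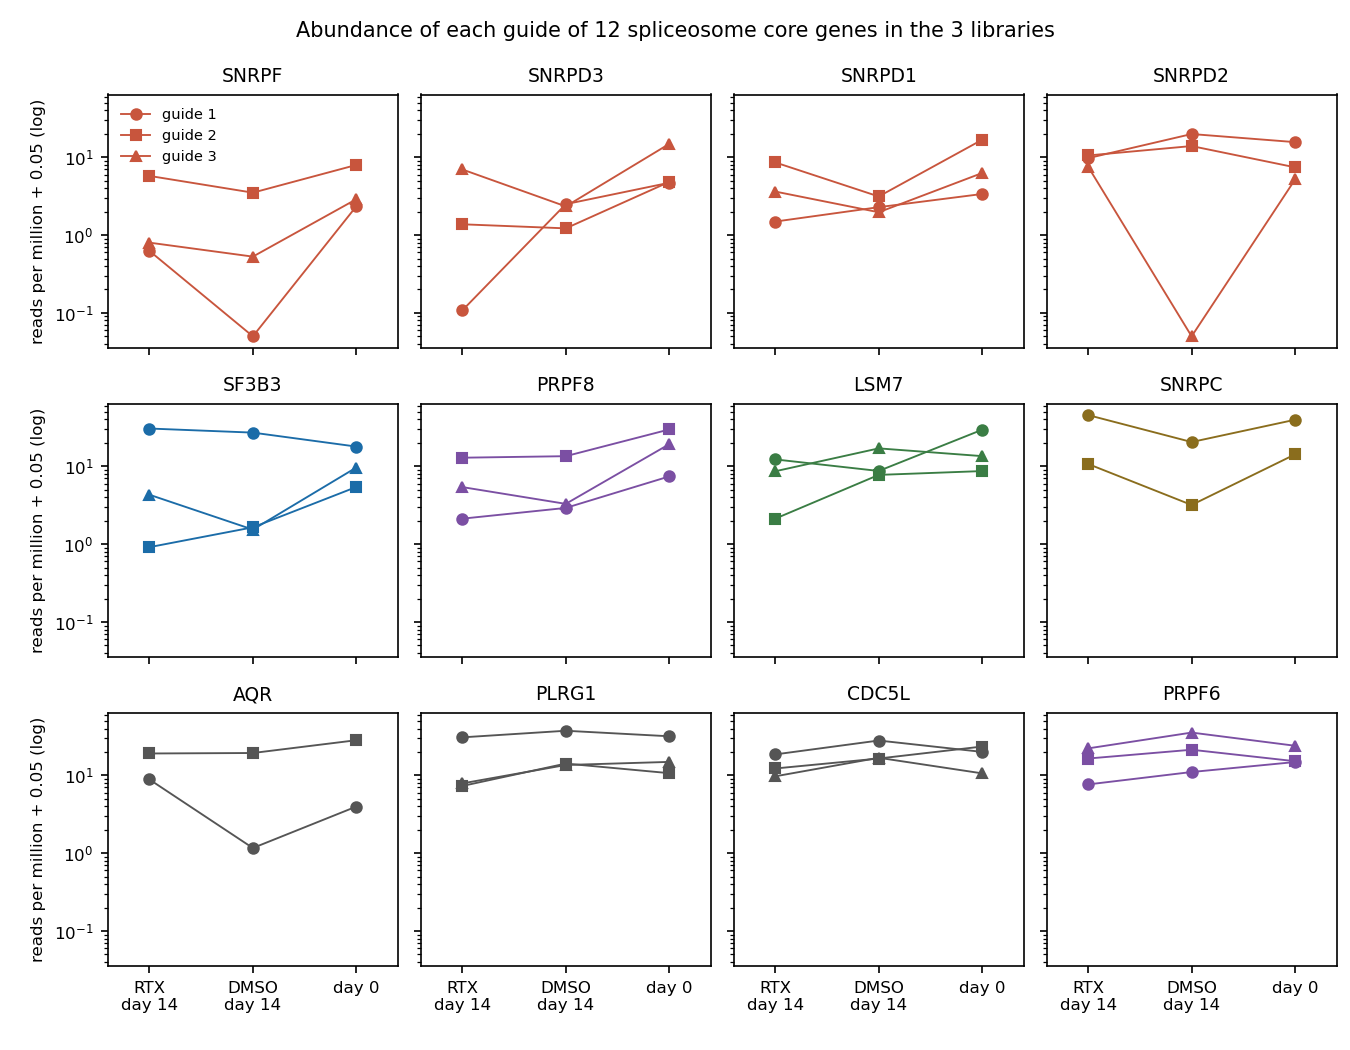
Reads scaled to the library total (RPM) plus 0.05, on a log axis, of each guide of 12 spliceosome genes in the RTX day 14, DMSO day 14 and day 0 libraries; lines join the same guide. The first SNRPF guide and guide 3 of SNRPD2 have 0 reads in the DMSO library, and both SNRPC guides are lowest there.

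Subgroup medians for RTX over DMSO were 0.51 for the other U1 and U2 proteins, 0.17 for the Sm proteins and 0.13 for the SF3A and SF3B proteins. With the mean over guides the Sm median was 0.46. Subgroup medians were -0.05 for the PRPF proteins and -0.09 for the other U5, PRPF19 complex and helicase proteins, which turned to 0.05 and 0.01 when scaled to the non-targeting guides. For the LSM proteins the median was -0.14, and it was -0.04 with that scaling. Its sign turned with at least 50 day 0 reads (0.035) and with the mean over guides (0.12). No difference between subgroups was tested.

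Genes of the same pathway outside the 38 were counted from lists chosen with earlier results of these data known. Of 82 other spliceosome genes, 26 had a score of -1 or lower for DMSO over day 0, or 31.7%, against 3.42% of all genes. The median of the 82 was -0.69. SART3, which helps reassemble the U4 and U6 particle, was lowest at -2.28, followed by BUD31 at -2.20, U2SURP at -2.03 and SRSF1 at -1.98. One gene of that list was called by exact rank aggregation, SMU1 at -1.86 with an adjusted p of 0.0392. For RTX over DMSO, 10 of the 82 were at 1 or higher, or 12.2%, against 2.75% of all genes, and the median was 0.43. The highest were SNRPB2 at 1.59, SRSF3 at 1.503, SART3 at 1.45 and CRNKL1 at 1.42.

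The genes of Sm ring assembly, counted with PRMT5 and its partners, gave the most extreme value near the pathway. Of 16 measured assembly genes, 5 were at -1 or lower for DMSO over day 0, or 31.25%, against 3.42% of all genes. The median of the 16 was -0.78. PRMT5, the methyltransferase that modifies Sm proteins before assembly, had a score of -3.17 and was called lower by exact rank aggregation, with an adjusted p of 0.0416. GEMIN5 had -1.97, CLNS1A -1.83 and SMN2 -1.27, where SMN1 and SMN2 are near-identical copies whose guides cannot be assigned with certainty. For RTX over DMSO, 3 of the 16 were at 1 or higher, or 18.75%, against 2.75% of all genes, with none called. These were PRMT5 at 2.11, CLNS1A at 1.43 and SMN1 at 1.09. WDR77, the PRMT5 partner, followed at 0.78. PRMT5 is also known to act on histones and other proteins.

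Other essential machines stood beside the spliceosome as follows, without a test of the differences. Median scores for DMSO over day 0 were -0.63 for the 38 genes, -0.75 for 31 proteasome genes, -0.82 for 76 ribosomal protein genes and 0.06 for 364 olfactory receptor genes, which are silent in most tissues. For RTX over day 0 they were -0.35, -0.29, -0.08 and -0.02 in that order. For RTX over DMSO the 38 spliceosome genes had 0.11, proteasome genes 0.39, ribosomal protein genes 0.66 and olfactory receptor genes -0.06. A score of 1 or higher for RTX over DMSO was found for 2 of 38 spliceosome (5.26%), 4 of 31 proteasome (12.9%) and 21 of 76 ribosomal protein genes (27.6%). The share was 12.2% of the 82 other spliceosome genes, whose median was 0.43. It was 1.10% of the olfactory receptor genes and 2.75% of all genes tested.

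At their false discovery rate under 0.05, the authors' deposited table of DMSO over day 0 has 30 of 112 spliceosome guides lower and 6 higher, against 5.84% and 9.77% of all guides. The authors' deposited table of RTX over day 0 has 26 lower and 7 higher, against 4.04% and 11.0% of all guides, so the 7 higher (6.25%) are a smaller share than over all guides. That of RTX over DMSO has 4 lower and 20 higher in the authors' deposited values, against 4.29% and 13.9% of all guides. In the authors' deposited table of DMSO over day 0, 17.6% of the non-targeting guides are called higher, so these calls do not stand for a 5% error.

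RefSeq names pseudogenes after several of these genes, and guides can match such copies. There are 20 for SNRPG, 11 for SNRPE and 4 for SNRPF among 38 for the Sm genes, 20 for SNRPC, and 5 for LSM3 among 9 for the LSM genes. A cut at several sites, or reads shared with a copy, was not tested, because guide sequences were not used here. The 38 genes lie on 16 chromosomes.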

How the data were processed

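Guides were counted by sequencing genomic DNA of NUGC3 cells, 1 library each for RTX day 14, DMSO day 14 and day 0. For every 2 libraries the authors deposited 1 guide table. The submitters' processing notes name MAGeCK 0.5.7 and hg19. Which rule assigned a read to a guide was not given in the sources used here. The deposited values are read counts scaled by the authors (a normalized signal), 1 for either library of the comparison per the file headers, beside the authors' p-values and false discovery rates. In the tables of DMSO over day 0 and RTX over DMSO, dividing these deposited signal values by the worth of a read gave whole reads, within 0.1, for 99.9984 to 100% of guides, which gave the library totals and the reads printed. The deposited tables left 0 columns of per-sample values unused.

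Log2 ratios used a pseudocount of 5 and guides with at least 10 normalized day 0 reads; gene scores are medians over guides, for genes with at least 2. Exact robust rank aggregation used the top 0.25 of ranks, one-sided in each direction, with Benjamini-Hochberg adjustment over 20150 genes and a threshold of 0.05 (Python 3.11.15, numpy 2.4.6, scipy 1.17.1, pandas 2.3.3), and was tested on simulated data. Its p compares 2 libraries and measures how the guides of a gene rank together. An added alternative ranked guides by an exact test of the whole reads in edgeR 4.0.16, its dispersion taken from the non-targeting guides. It called 42 genes lower for DMSO over day 0, 3 lower and 15 higher for RTX over day 0, and 0 lower and 16 higher for RTX over DMSO.

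The spliceosome genes and the comparison lists were chosen with earlier results of these data known. Named with the reads of every guide were the 4 lowest-scoring and 4 highest-scoring of the 38 genes in each comparison, and any called. Of the other spliceosome and the assembly genes, the 4 most extreme for DMSO over day 0 and RTX over DMSO were named. Proteasome, ribosomal protein and olfactory receptor genes were summarized without names. Also scored were 6 Sm-fold proteins that are not among the 38 genes. One of the 6, SNRPN, was counted with the other spliceosome genes too. For RTX over day 0 the 6 had a median of -0.20, and 4 of them were below 0. A score of 1 or higher was found for 1 of the 6, or 16.7%, against 0.620% of all genes. It was LSM12 at 1.89, with guides from 0.48 to 2.77 (adjusted p 0.0523, exact rank aggregation, higher, not called). For DMSO over day 0 the lowest of the 6 was LSM11 at -1.24. SMU1, SMN1 and WDR77 were named because they were called or lay near the list's extremes.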

Additional observations from a re-analysis of the deposited data

How the results depend on the processing

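Each alternative changed 1 setting. A score counted as moved when it shifted by more than the SD of the non-targeting guides divided by the square root of the number of guides. A count of genes was judged instead by the ratio of the 2 counts, and 0 under both settings counted as stayed. Of the values that answer a comparison, scores and counts together, 246 stayed and 30 moved. They include the counts of the 38 genes called by rank aggregation, which were 0 throughout. Of single-gene scores, 972 stayed and 42 moved. No alternative run called any of the 38 genes by rank aggregation. Scaling to the non-targeting guides moved DMSO over day 0 to -0.81 for the 38 genes, -0.86 for SF3A and SF3B, -0.81 for Sm, -0.42 for LSM, -0.72 for PRPF, -1.15 for the other U1 and U2 proteins and -0.85 for the other U5, PRPF19 complex and helicase proteins. It moved RTX over day 0 to -0.45 with 8 genes at -1 or lower in place of 5, and RTX over DMSO to 0.21; equal totals moved RTX over day 0 to -0.41. The mean over guides gave, for DMSO over day 0, -0.52 for SF3A and SF3B, -0.99 for Sm, -0.39 for LSM and -0.70 for the other U1 and U2 proteins. For RTX over day 0 it gave -0.51 for the 38 genes, -0.71 for SF3A and SF3B, -0.57 for Sm and -0.71 for LSM, and for RTX over DMSO 0.46 for Sm, 0.12 for LSM and 4 genes at 1 or higher in place of 2. At least 50 day 0 reads gave -0.51 for LSM and -0.79 for PRPF (DMSO over day 0) and 0.035 for LSM (RTX over DMSO, where its median thus changed sign, as with the mean over guides), and no read filter gave -0.82 for the other U5, PRPF19 complex and helicase proteins (DMSO over day 0). At least 3 guides gave -0.77 for the other U1 and U2 proteins (DMSO over day 0) and 0 genes at 1 or higher for RTX over DMSO, since SNRPC and AQR have 2 guides. A pseudocount of 20 left 3 genes at -1 or lower for RTX over day 0. Shares of all genes past a score were not counted under the alternatives, so these counts of the 38 genes have no such share beside them. Adding the guides listed as NAA38, chosen after seeing the data like the count test, gave -0.52 for LSM (RTX over day 0). Where no construction shows it, the cause was not tested. Over all genes, a pseudocount of 1 called 13 genes lower for DMSO over day 0 in place of 40, and 10 higher for RTX over day 0 in place of 16. A pseudocount of 20 called 25 higher for RTX over DMSO in place of 16, and 4 lower for RTX over day 0 in place of 0. The authors' p-values as ranks called 14 lower and 28 higher for RTX over day 0, in place of 0 and 16, and 26 higher for RTX over DMSO. No paired analysis was possible because each condition was 1 library. Few reads limit the ratios of single guides.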
